A study of Mus musculus with 3 samples.

Results

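This account covers 7 mouse genes that encode replication-independent histone variants: the H2A variant genes H2afx, H2afz, H2afv, H2afy and H2afy2, and the H3.3 genes H3f3a and H3f3b. They were chosen by symbol, through the Ensembl ID of each row, and all 7 were found among the 50043 gene IDs of the deposited table. Newer names for the same genes are H2ax, H2az1, H2az2, Macroh2a1, Macroh2a2, H3-3a and H3-3b. RNA was sequenced from KH2 mouse embryonic stem cells in which Pold3 can be knocked out by induction, at passages P0, P1 and P2, each with 1 library. All 3 libraries carry the same genotype label, and the labels name neither an agent of induction nor its time relative to P0, nor an uninduced control kept alongside. Whether the line is 1 clone and whether feeder cells were present are not stated in the labels. KH2 is an embryonic stem cell line built to take inducible transgenes. The product of Pold3 is a subunit of the replicative DNA polymerase delta, and the passages are set against each other.

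Most histones are made only in S phase from clustered genes whose messages lack poly(A) tails. Replication-independent variants come from single genes with introns or poly(A) tails, are made through the cell cycle, and replace the standard histones at chosen places. MacroH2A carries a large extra domain, marks silent chromatin such as the inactive X chromosome, and is low in embryonic stem cells. H2A.Z sits at promoters and enhancers, H2A.X is phosphorylated around DNA breaks, and H3.3 is placed at active genes by HIRA and at telomeres and repeats by ATRX and DAXX.

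The promoters of 3 members are shown to set beside their messages: H2afy2, which fell more than 2-fold after P0, H2afz, the most abundant, and H3f3b, which stayed within 5% of its P0 level. Each is RefSeq sequence from 250 bases before to 50 after the annotated start, on build GRCm38.p6. H2afy2 is chr10:61783815-61784114 on the minus strand, H2afz is chr3:137864237-137864536 on the plus strand, and H3f3b is chr11:116024455-116024754 on the minus strand. Capitals mark the CCAAT box (CCAAT) and the GC box (GGGCGG) on either strand, so ATTGG and CCGCCC are the same motifs read from the other strand.
H2afy2: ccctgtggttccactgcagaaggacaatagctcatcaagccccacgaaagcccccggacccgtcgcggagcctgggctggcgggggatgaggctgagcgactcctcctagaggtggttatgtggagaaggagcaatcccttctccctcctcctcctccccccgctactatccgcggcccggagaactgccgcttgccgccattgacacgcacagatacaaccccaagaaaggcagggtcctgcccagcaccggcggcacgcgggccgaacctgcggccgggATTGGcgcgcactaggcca
H2afz: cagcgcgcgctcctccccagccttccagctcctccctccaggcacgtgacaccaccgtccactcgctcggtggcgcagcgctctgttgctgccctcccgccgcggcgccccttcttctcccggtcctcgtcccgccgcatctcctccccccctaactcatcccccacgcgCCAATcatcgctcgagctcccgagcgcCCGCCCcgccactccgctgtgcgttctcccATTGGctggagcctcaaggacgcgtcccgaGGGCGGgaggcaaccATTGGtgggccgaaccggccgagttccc
H3f3b: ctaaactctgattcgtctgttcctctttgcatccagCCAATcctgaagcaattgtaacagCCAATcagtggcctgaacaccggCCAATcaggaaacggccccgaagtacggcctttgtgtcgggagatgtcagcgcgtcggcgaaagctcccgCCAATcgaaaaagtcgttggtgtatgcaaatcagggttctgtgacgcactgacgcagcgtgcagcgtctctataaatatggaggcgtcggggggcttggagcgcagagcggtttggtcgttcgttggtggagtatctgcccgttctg

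H3f3b held 4 CCAAT boxes, H2afz 3 and H2afy2 1. Those of H3f3b lie 97 to 214 bases before the start. The match in H2afy2 lies after the start, at base 32, as does 1 of those in H2afz, at base 23. Of the other members, H2afv held 4, H3f3a 1 and H2afy none. Among all 32851 promoters of this length in the RefSeq table, 37.4% held 1 or more CCAAT and 3.37% held 3 or more. GC boxes numbered 6 in H3f3a, 2 each in H2afz and H2afy, 1 in H2afv, and none in H2afy2 and H3f3b, and 35.7% of all promoters held 1 or more. H3f3b was the 1 member with a TATA box (TATAAA), which lies 27 bases before the start and is found in 13.6% of all promoters. H3f3b also held 2 copies of TGACG, the core of the cyclic AMP response element, and H2afy 1 copy, against 20.8% of all promoters with 1 or more. The 6 promoters with an entry were 55.0% to 74.3% G and C, against a median of 52.7% over all promoters. H2afx has no entry in the table.

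Values are FPKM as deposited, that is reads scaled by gene length and library total. Library totals, recovered from these values, came to 23213528 (P0), 18059914 (P1) and 22405670 (P2) reads, of which the 7 genes held 54204, 34060 and 42233. Each gene is given with the reads behind it. Ranges in parentheses are exact 95% intervals of counting error alone, and reads that carry no molecular identifier are not independent molecules. A single library stands for each passage, so nothing here has a replicate check and no test was made. The words rose and fell are kept for a difference in log2(FPKM + 1) of 1 or more, where either library reached FPKM 1. Pold3 itself measured 49.2 FPKM at P0, 13.0 at P1 and 11.6 at P2, from 1389, 286 and 317 reads, a ratio to P0 of 0.265 (0.232 to 0.301) at P1 and 0.236 (0.209 to 0.267) at P2. The 10 embryonic stem cell markers checked, among them Pou5f1, Nanog and Sox2, were all at 112.6 FPKM or more in every library, and 1 of them, Klf4, fell at P2, at 228.6, 116.2 and 112.6 FPKM. Esrrb came next, at 221, 127 and 118 FPKM, at P2 0.535 of P0 (0.519 to 0.551) and not past 2-fold. Of 10 fibroblast markers 2 reached FPKM 1, Thy1 and Col1a1, and both rose. Postn was at 0 throughout, and the 10 summed to 7.26, 16.9 and 19.5 FPKM. The sum of 8 trophoblast markers was 65.9, 110.2 and 144.9 FPKM, most of it Tfap2c, Krt8 and Krt18. Hand1 was past 2-fold at P1 and 5 of the 8 at P2, all higher. The added 1 in log2(FPKM + 1) holds low genes under the line: by plain ratio, P1 stood at 6.13 times P0 in Hand1 (3.99 to 9.75), 5.86 in Cdx2 (2.80 to 13.7), 4.71 in Gata3 (1.85 to 14.2) and 2.29 in Krt7 (1.4 to 3.81). At P2 these ratios were 8.61 in Hand1, 10.4 in Cdx2, 8.98 in Gata3 and 3.88 in Krt7, from levels of 0.827 FPKM or less at P0. The sum of 6 endoderm markers was 5.53, 5.62 and 8.49 FPKM. Of the 4 that reached FPKM 1 at P0 or P2, P2 stood at 3.18 times P0 in Sox7, 2.37 in Gata6, 1.58 in Dab2 and 1.03 in Gata4. None was past 2-fold on the log2(FPKM + 1) scale. Sox17, under FPKM 1 throughout, had a larger plain ratio, at 0.125, 0.258 and 0.727 FPKM from 5, 8 and 28 reads. Foxa2 had 1 read in each library. The part of such cells in the results was not tested, and in bulk RNA fewer cells of a type and less RNA per cell cannot be told apart.

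Among the 7 genes, H2afy2 fell by more than 2-fold at P1 and at P2, and none rose. H2afy2, the member with the lowest level in every library, measured 0.327 of the P0 level at P1 and 0.273 at P2, while the other 6 genes stayed within 2-fold. Over all 13288 genes compared at P1 against P0, 0.549% were lower by 2-fold and 4.12% higher, so 88.2% of those past 2-fold were higher, or 74.9% after quantile normalization. At P2 against P0, 1.16% of 13472 genes were lower and 6.72% higher, a share of 85.3%, or 70.5% after quantile normalization. Both comparisons share the P0 library, so the second is no separate support for the first. All 7 members had a value below 0 for the log2 difference at P1 and 5 of 7 at P2, against 42.4% and 42.3% of all genes. At P1, H2afv and H3f3b hardly differed from P0, with ratios of 0.997 (0.936 to 1.06) and 0.989 (0.965 to 1.01). The members' median difference was -0.43 at P1 and -0.26 at P2, where all genes had 0.06 and 0.07.

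**Figure D1:**
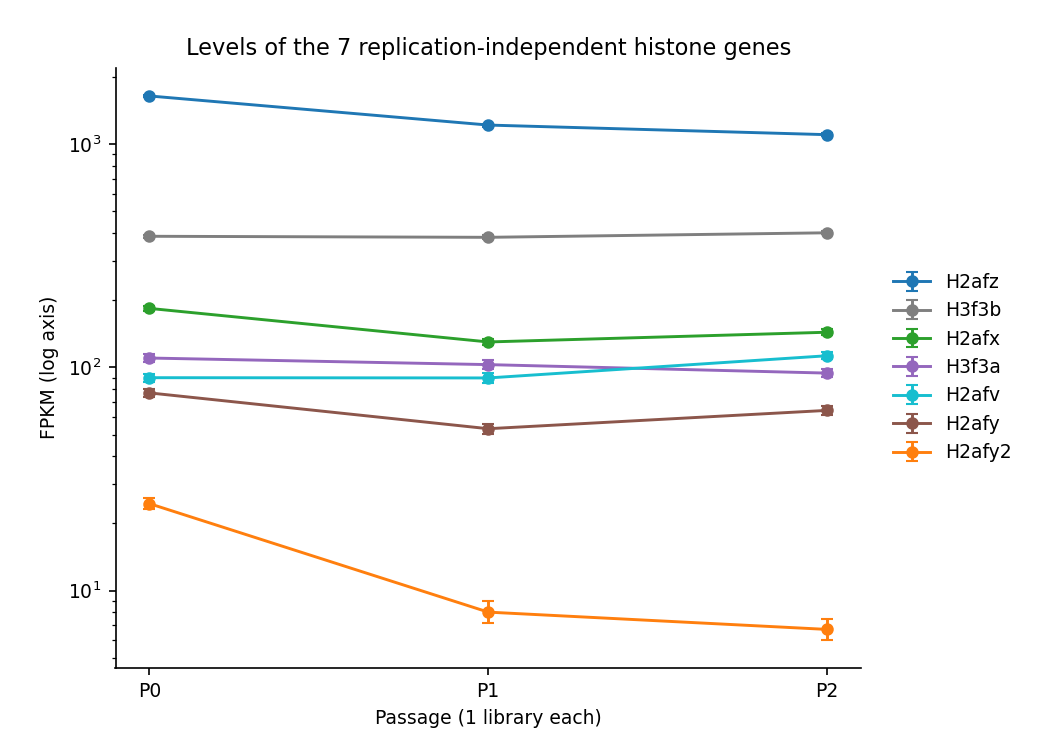
FPKM (log axis) of the 7 genes at P0, P1 and P2, 1 library each, with exact 95% counting intervals as bars. H2afy2 lies lowest, at 24.5 FPKM at P0, 8.02 at P1 and 6.71 at P2, while H2afz is at 1101 FPKM or more and H3f3b between 382 and 400.3.

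H2afy2, on chromosome 10, encodes macroH2A2. It measured 24.5 FPKM at P0, 8.02 at P1 and 6.71 at P2, from 1239, 315 and 327 reads. The highest library was P0, and the later libraries lay far below it. Set against P0, the level was 3.06-fold lower at P1 (2.70 to 3.47) and 3.66-fold lower at P2 (3.23 to 4.14). P2 was below P1, with a ratio of 0.837 whose interval, 0.715 to 0.980, ends just short of 1. The log2 difference was -1.50 at P1, the 12th lowest of the 13288 genes compared, and -1.73 at P2, the 18th lowest of 13472. Its gene overlaps Aifm2, a ferroptosis suppressor gene on the other strand, over 233 exonic bases, and the strand of the libraries is not given. Aifm2 measured 9.0, 6.28 and 6.51 FPKM from 265, 144 and 185 reads, beside 1239, 315 and 327 reads of H2afy2, so it came closer to H2afy2 in the later libraries. How many reads of either gene fell in the shared bases cannot be told from a table of genes.

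H2afy, on chromosome 13, encodes macroH2A1, whose spliced forms 1.1 and 1.2 cannot be told apart in a table of genes. It measured 76.8 FPKM at P0, 53.1 at P1 and 64.2 at P2, from 2633, 1416 and 2122 reads. P1 was the low point. The ratio to P0 was 0.691 at P1 (0.648 to 0.738) and 0.835 at P2 (0.788 to 0.884), and P2 stood at 1.21 times P1 (1.13 to 1.29). The 2 macroH2A genes therefore differed in the second step: both were lower at P1 than at P0, and at P2 H2afy lay above its P1 value and H2afy2 below.

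H2afy2 made up 24.2% of the summed macroH2A message at P0 (23.0 to 25.5%), 13.1% at P1 (11.8 to 14.6%) and 9.47% at P2 (8.49 to 10.5%). The intervals of the 3 libraries do not overlap. The ratio of the genes within a library does not depend on its total or on any factor applied to the whole library, and relative to H2afy, H2afy2 was at P1 2.12-fold lower than at P0 (Woolf interval 1.84 to 2.43) and 3.05-fold lower at P2 (2.67 to 3.49). The class as a whole measured 101.4, 61.1 and 70.9 FPKM.

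**Figure D2:**
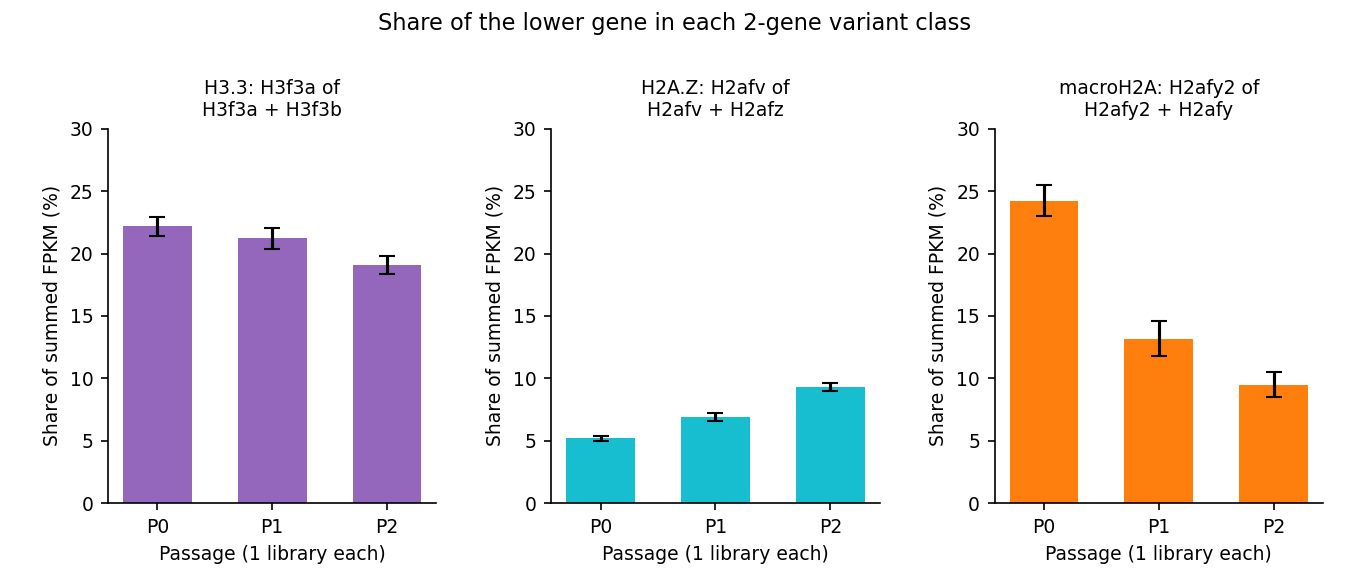
Share of the summed FPKM of a variant class that came from the lower of its 2 genes, at P0, P1 and P2 (1 library each, exact 95% counting intervals as bars). H2afy2 goes down to 9.47% of macroH2A and H2afv up to 9.29% of H2A.Z at P2, while H3f3a lies between 19.1% and 22.2% of H3.3.

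H2A.Z is encoded by H2afz on chromosome 3, the major gene and one the mouse embryo needs, and by H2afv on chromosome 11, whose protein differs at a few residues. H2afz measured 1640 FPKM at P0, 1215 at P1 and 1101 at P2, from 26009, 14989 and 16842 reads. The 3 libraries descend in passage order, and H2afz ranked 43rd, 71st and 77th by FPKM among all IDs. Its ratio to P0 was 0.741 at P1 (0.726 to 0.756) and 0.671 at P2 (0.658 to 0.684), within 2-fold but with intervals well clear of 1. Between P2 and P1 the ratio was 0.906 (0.886 to 0.926).

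H2afv measured 89.9 FPKM at P0, 89.6 at P1 and 112.7 at P2, from 2245, 1742 and 2717 reads. P0 and P1 were alike, with a ratio of 0.997 (0.936 to 1.06), and P2 was above both, at 1.25 times P0 (1.19 to 1.33) and 1.26 times P1 (1.18 to 1.34). The genes of this pair thus went opposite ways between P0 and P2, each by less than 2-fold. H2afv made up 5.19% of the H2A.Z message at P0, 6.87% at P1 and 9.29% at P2, with intervals that do not overlap. Relative to H2afz, H2afv was 1.35-fold higher at P1 than at P0 (Woolf interval 1.26 to 1.44) and 1.87-fold higher at P2 (1.76 to 1.98). The class measured 1730, 1305 and 1213 FPKM, most of it H2afz in every library.

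H2afx, on chromosome 9, encodes H2A.X, whose tail is phosphorylated by the kinases ATM, ATR and DNA-PK near broken DNA. Its gene is known to give both a tailless S-phase message and a longer polyadenylated one, and the table does not separate them. It measured 183.6 FPKM at P0, 129.9 at P1 and 143.6 at P2, from 5899, 3247 and 4453 reads. P1 was lowest, as for H2afy. The ratio to P0 was 0.708 at P1 (0.678 to 0.739) and 0.782 at P2 (0.752 to 0.813), and P2 stood at 1.11 times P1 (1.06 to 1.16). None of these passed 2-fold.

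H3f3a on chromosome 1 and H3f3b on chromosome 11 encode the same H3.3 protein from different messages. H3f3b measured 386 FPKM at P0, 382 at P1 and 400.3 at P2, from 13795, 10618 and 13802 reads. Its ratio to P0 was 0.989 at P1 (0.965 to 1.01) and 1.04 at P2 (1.01 to 1.06), the smallest difference of the 7 genes at P2. H3f3a measured 110.1, 102.8 and 94.2 FPKM, from 2384, 1733 and 1970 reads. Its ratio to P0 was 0.934 at P1 (0.878 to 0.994) and 0.856 at P2 (0.806 to 0.909). The summed H3.3 message was 496, 485 and 495 FPKM, so P2 stood at 0.997 of P0. H3f3a made up 22.2%, 21.2% and 19.1% of it.

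**Figure D3:**
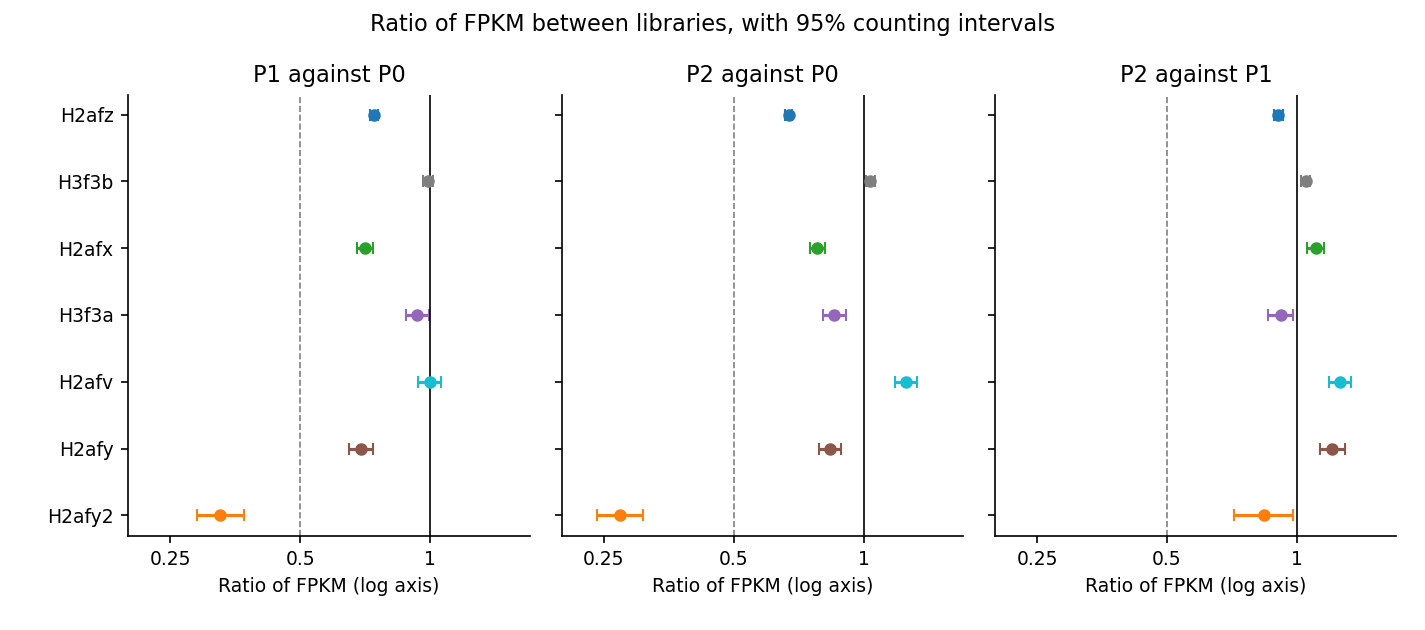
Ratio of FPKM (log axis) between libraries for each gene, with exact 95% counting intervals. H2afy2 is the 1 gene left of the dashed line at 0.5, at P1 and P2 against P0, and no gene crosses it at P2 against P1.

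In order of level at P0 the genes ran H2afz, H3f3b, H2afx, H3f3a, H2afv, H2afy and H2afy2. P1 had the same order, and at P2 H2afv stood above H3f3a. Neighbours in this order had separate counting intervals in every library. Levels of different genes depend on the length by which the authors divided, which was close to the mean of the annotated transcripts (683 bases for H2afz, 933 for H3f3a). With the length of the longest coding transcript instead, H2afz would stand at 1048, 776 and 703 FPKM and still be first, and H3f3a at 36.1, 33.8 and 30.9 FPKM would come sixth, after H2afv and H2afy. Summed, the 7 genes measured 2512 FPKM at P0, 1981 at P1 and 1922 at P2, and H2afz was 65.3%, 61.3% and 57.3% of the sum.

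From P1 to P2 no member passed 2-fold in either direction, where 1.66% of 13585 genes did, 0.883% lower and 0.78% higher. The log2 differences ran from -0.23 in H2afy2 to 0.33 in H2afv. Of the 7, 3 were below 0, beside 46.2% of all genes compared. H2afx, H2afy, H2afv and H3f3b were higher at P2 than at P1 and H2afz, H3f3a and H2afy2 lower. None of the 7 intervals included 1, but they cover counting error alone and not the spread between libraries.

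**Figure D4:**
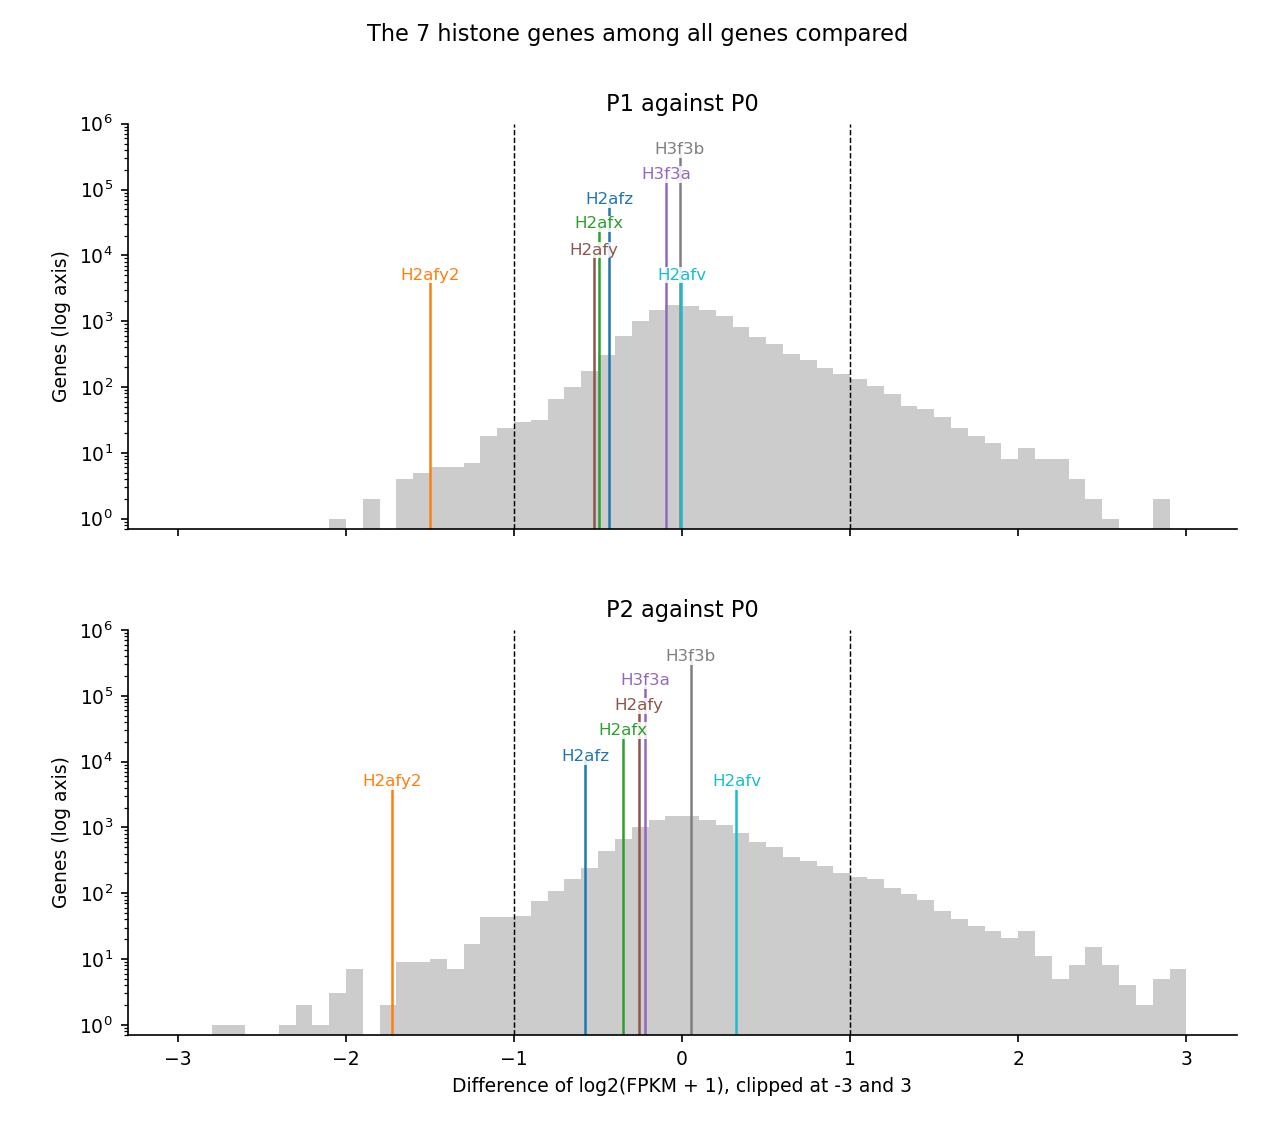
Number of genes (log axis) by difference of log2(FPKM + 1) for P1 against P0 (top) and P2 against P0 (bottom), with the 7 histone genes as coloured lines and dashed lines at -1 and 1. H2afy2 lies beyond -1 in both panels, and H2afv alone lies to the right of H3f3b at P2.

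The genes whose pair of differences from P0 lay nearest to that of H2afy2 were sought among the 9257 protein-coding genes that reached FPKM 5 in any library. Distance is Euclidean over the P1 and P2 differences of log2(FPKM + 1), so it rests on 3 libraries that share P0. Nearest of the genes reported here was Lefty1, an inhibitor of Nodal signalling, at 67.2, 22.0 and 20.8 FPKM (distance 0.10). Zic5, a zinc finger gene, followed at 17.2, 6.03 and 4.73 FPKM (0.14), and Lefty2, a paralog of Lefty1, at 57.8, 23.4 and 17.5 FPKM (0.24). Zic2, also a zinc finger gene, measured 25.7, 8.84 and 5.71 FPKM (0.27), and the kinase gene Dclk2 12.3, 4.86 and 2.56 FPKM (0.36). No gene lay within 0.1. With H2afy2 added to the genes searched, 20 were lower by 2-fold at both P1 and P2.

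The genes that place, exchange or bind histones, not variants alone, differed little. They cover H3.3 chaperones, replication-coupled assembly, H2A.Z exchange, CENP-A loading, and general chaperones with nuclear import factors and linker-binding proteins. Of the 57 deposition and exchange factors found in the table, none passed 2-fold in any comparison, where 4.67% of all genes did at P1 against P0 and 7.88% at P2 against P0. Their median difference was -0.10 at P1 and -0.13 at P2, against 0.06 and 0.07 over all genes. Of the 57, 38 and 40 were below 0, where 42.4% and 42.3% of all genes were. Against P1, the median at P2 was -0.02.

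For H3.3, the 8 chaperones had medians of -0.14 at P1 and -0.12 at P2. Hira, the subunit that gives its complex its name, measured 17.6 FPKM at P0, 14.8 at P1 and 12.5 at P2, at P2 0.711 of P0 (0.628 to 0.805). Asf1a, which hands H3-H4 dimers to HIRA, measured 42.0, 32.9 and 34.1 FPKM. Ubn1, a HIRA partner, and Dek, a chromatin protein, differed at P2 by -0.15 and -0.13 on the log2 scale. All 8 chaperones were below 0 at P2, by between -0.46 and -0.03, where 42.3% of all genes were below 0.

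For H2A.Z, 21 genes of the SRCAP and p400/TIP60 exchange complexes and of H2A.Z removal had medians of -0.12 and -0.14. Anp32e, which takes H2A.Z off chromatin, had the largest difference of the 21 at P2. It measured 283.7, 218.1 and 198.0 FPKM, and its ratio to P0 was 0.769 at P1 and 0.698 at P2 (0.674 to 0.722), near the 0.671 of H2afz. Ing3, Yeats4 and Brd8, subunits of the TIP60 complex, differed at P2 by -0.43, -0.36 and -0.35 on the log2 scale. Srcap, the motor of its complex, was low throughout, at 1.22, 1.11 and 1.05 FPKM.

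The 11 genes of replication-coupled assembly had medians of 0.08 and -0.02. Asf1b, the second ASF1 gene, measured 41.0, 43.3 and 56.4 FPKM, at P2 1.38 times P0 (1.26 to 1.5). Chaf1a, the large subunit of CAF-1, measured 41.1, 47.1 and 48.6 FPKM, Tonsl, which reads new H4 behind forks, 77.7, 97.8 and 91, and Nasp, an H3-H4 and H1 chaperone, 613, 607 and 525. Asf1a and Asf1b thus stood on opposite sides of P0 at P2. Of 13 measured general chaperones, import factors and linker-binding proteins, 10 were below 0 at P1 and 8 at P2, with medians of -0.11 and -0.19. Over all genes 42.4% and 42.3% were below 0. The abundant acidic chaperone genes Set, Npm1 and Ncl measured 1841, 1442 and 1261 FPKM, 3207, 2610 and 2295 FPKM, and 1606, 1253 and 1153 FPKM, and Hmgb1, which binds linker DNA, 649, 533 and 523 FPKM. All 4 were below P0 in both later libraries and within 2-fold.

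**Figure D5:**
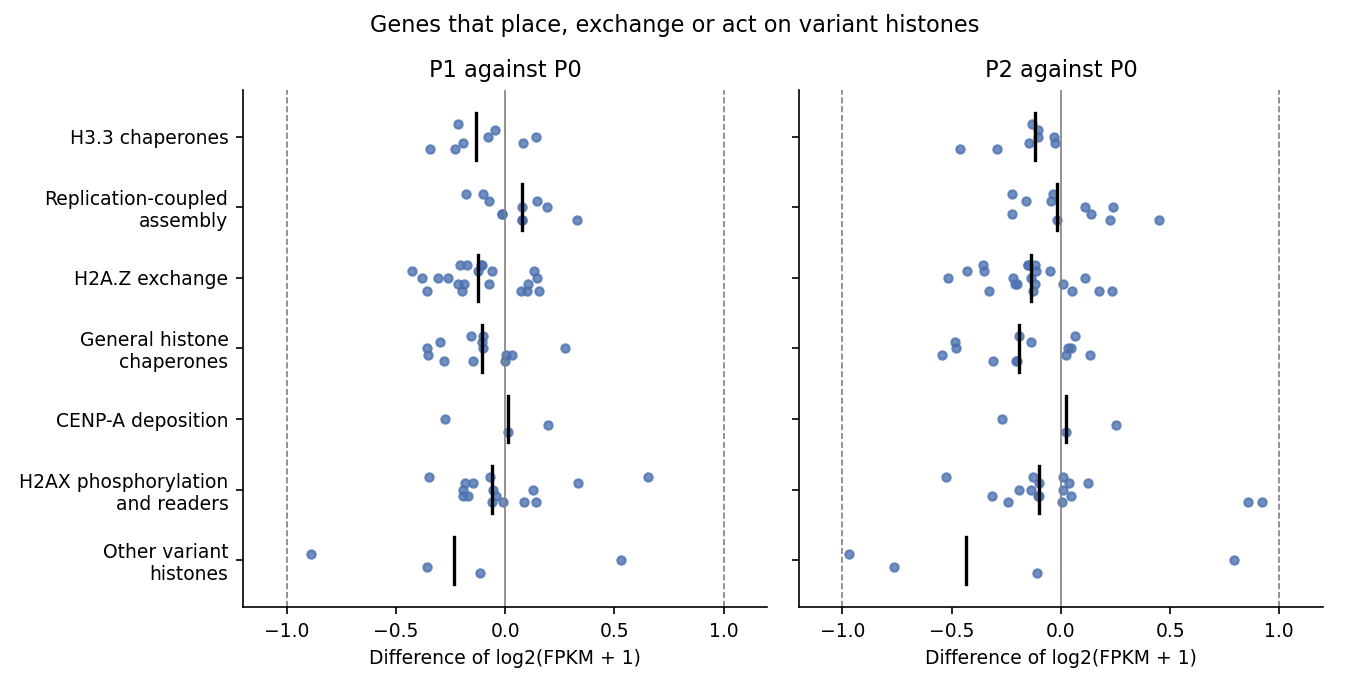
Difference of log2(FPKM + 1) for each measured gene reported here (points) of 7 lists, for P1 against P0 (left) and P2 against P0 (right). Black bars are medians of the points shown. A CENP-A loading gene not reported here is left out of its points and bar. Over all 4 such genes the medians were -0.13 at P1 and -0.09 at P2, on the other side of 0 from the bars. No point reaches the dashed lines at -1 and 1, and the widest spread is in the lists of other variant histones and of H2AX phosphorylation and readers.

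Among 18 genes that phosphorylate, dephosphorylate or read H2A.X, 17 were compared at P2. None passed 2-fold on the log2(FPKM + 1) scale, where 7.88% of all genes did at P2 against P0. Their medians were -0.06 at P1 and -0.10 at P2. Ppm1d, the phosphatase WIP1 that acts on phosphorylated H2A.X and a known p53 target, came closest on that scale, at 28.3 FPKM at P0, 45.0 at P1 and 54.4 at P2. Its ratio to P0 was 1.59 at P1 (1.48 to 1.72) and 1.92 at P2 (1.79 to 2.06). The kinase gene Atm measured 32.9, 36.3 and 33 FPKM and Atr 17.9, 15.6 and 16.7. The reader gene Mdc1 measured 47.6, 46.3 and 48.0 FPKM, and Trp53bp1, which binds marked chromatin at breaks, 39.7, 42.2 and 31.7 FPKM. Eya1 and Eya2, tyrosine phosphatases of H2A.X, were at or below 1.51 FPKM in all 3 libraries. Of the same family, Eya3 measured 27.1, 26.9 and 25.1 FPKM, and Eya4 was at 0.377 FPKM or less. By plain ratio Eya2, at 0.348, 0.806 and 1.44 FPKM, stood at P2 at 4.14 times P0 (2.04 to 9.29), from 40 reads at P2 and 10 at P0. Eya1, at 1.51, 0.972 and 0.745 FPKM, stood at 0.492 of P0 (0.325 to 0.733).

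Other variant histones, some of them genes of the histone clusters by name, gave 4 measured members out of 17 in the table. Cenpa, the centromeric H3, measured 114.6, 105.8 and 106.1 FPKM. H2afj, an H2A variant gene, measured 13.1, 19.3 and 23.4 FPKM, at P2 1.79 times P0 (1.57 to 2.04), the highest ratio among these variants and the 7 members. Hist3h2ba, named for the Hist3 cluster, was low, at 2.53, 0.902 and 0.800 FPKM from 36, 10 and 11 reads. By plain ratio it was 2.80-fold lower at P1 (1.36 to 6.33) and 3.16-fold lower at P2 (1.57 to 6.88), the largest drop of the 4, and its log2(FPKM + 1) differences of -0.89 and -0.97 did not reach the line. The testis and oocyte variants of the list, such as H2afb1, Hils1 and H1foo, were at or near 0. Of linker histones, H1fx, which encodes H1.X from a single replication-independent gene, measured 11.6, 8.87 and 6.45 FPKM, at P2 0.554 of P0 (0.459 to 0.668) and not past 2-fold. The 5 replication-dependent genes Hist1h1a to Hist1h1e summed to 5.33, 4.09 and 4.28 FPKM. Of these, Hist1h1c measured 2.73, 1.77 and 1.89 FPKM and Hist1h1a 0.805, 1.12 and 1.67. Messages of this kind have no poly(A) tail, and the labels do not say whether the libraries were selected for poly(A).

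Some of the 7 genes have near-identical copies elsewhere, so reads could be shared. At an identity of at least 95% over 200 or more aligned bases, H3f3a had 18 copies at other loci, H2afz 5, H3f3b 2, H2afx and H2afy2 1 each, and H2afy and H2afv none. Of these, 13 copies of H3f3a and 4 of H2afz have a row in the table, and the others were not analysed here. The copies with a row held 4.90, 4.15 and 3.61 FPKM in sum for H2afz and at most 1.08 FPKM for H3f3a. For each member the copies with a row summed to 1.05% or less of it in every library.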

How the data were processed

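RNA sequencing of 3 libraries gave 1 table of FPKM values, deposited by the authors. Per the submitters' processing notes, TopHat2 2.0.9 with Bowtie2 2.0.6 and mm9 were used. Not given in the sources used here are the read counter, annotation, strand and RNA selection. Of 50043 IDs, 49326 matched a symbol, and chromosomes came from GENCODE release M21, so no coordinates of the files are printed. Members and gene lists were chosen with earlier results of these data known. Some genes are not reported here, although counts over lists and over all genes include them. The named genes are the 7 members, Pold3, Pou5f1, Nanog, Sox2 and the 5 nearest patterns. Of each list, the 4 that differed most at P2 against P0 are named (fewer where fewer were measured). Added after their values were seen were Atm, Atr, Mdc1, Srcap, Eya3, Eya4, overlapping genes and the unmeasured variants. So were Tmcc1 and the markers Postn, Tfap2c, Krt8, Krt18, Sox17 and Foxa2.

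Since FPKM equals reads over length and library total, totals were found from the commonest ratios among low genes, and reads as whole numbers (26290 of 26291 IDs above 0, within a relative 1e-12, lengths up to 110000). A common factor of reads and length was resolved by the multiple nearest to the mean M21 transcript length, which for H2afy2 was 3. Counts of reads serve for intervals only: exact Poisson intervals for levels, exact conditional (Clopper-Pearson) intervals for ratios and shares, and Woolf intervals for ratios of genes. At these depths, 3 reads on 2 kb amount to 0.0646, 0.0831 and 0.0669 FPKM. Differences were taken as log2(FPKM + 1), which understates low genes, and no test was possible with 1 library per passage. Only the 2-fold calls at P2 against P0 and the ratios of library totals were tried on simulated counts, with every gene set to 2 kb. The other steps were not tested in this way. Tools were Python 3.11.15, numpy 2.4.6, pandas 2.3.3, scipy 1.17.1, matplotlib 3.10.9 and BLAST 2.17.0. The check for copies compared the members' coding transcripts with all M21 transcripts.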

Additional observations from a re-analysis of the deposited data

How the results depend on the processing

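H2afy2 was the 1 member lower by 2-fold at P1 and at P2 against P0, and no member was higher, under each alternative: a floor of FPKM 5, a pseudocount of 0.1, quantile normalization, rescaling to 1000000, scaling by median of ratios and, chosen after seeing the data, near-identical copies with a row added. Leaving out the floor of FPKM 1 changes no call by its construction, since a difference of 1 in log2(FPKM + 1) needs FPKM 1 in the higher library, so it tests nothing. A floor of FPKM 5 could not change a member call either, as every member was at 6.71 FPKM or more in every library. A pseudocount of 0.1 can only enlarge a difference, so it could not undo the H2afy2 call. Of 105 member differences recomputed, 90 stayed inside the counting interval, 15 lay outside and 1 changed sign: H3f3b at P2 against P0, at -0.08 with median-of-ratios scaling in place of 0.05. That scaling moved the median of all genes by -0.11 at P1 and -0.12 at P2, quantile normalization that at P2 by -0.12. Under median-of-ratios scaling, deposition and exchange factors had medians of -0.22 at P1 and -0.26 at P2, beside -0.05 over all genes in both.

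Counts over all genes moved with these choices. With a pseudocount of 0.1, genes lower and higher numbered 175 and 1079 at P1 against P0, 286 and 1569 at P2 against P0, and 265 and 370 at P2 against P1. With a floor of FPKM 5 they numbered 32 and 310, 87 and 512, and 43 and 41. Rescaling gave 122 lower at P1 against P0, and 197 lower and 183 higher at P2 against P1. Quantile normalization gave 129 lower at P1 and 260 at P2 against P0, and moved the share of calls that were higher to 74.9% from 88.2% at P1 and to 70.5% from 85.3% at P2. The H2afv share of H2A.Z was 5.65% at P0 and 8.82% at P2 under quantile normalization. With the longest coding transcript as length, H3f3a was 13.3%, 12.6% and 11.2% of H3.3 and H2afy2 30.7%, 17.3% and 12.7% of macroH2A at P0, P1 and P2, in the same order. The cause was not tested. No paired analysis was possible because each passage has 1 library and the labels give no replicate numbers. Depth limits the low genes named, such as Hist3h2ba, Eya1 and Eya2.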

Other observations

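Of 4 genes that load CENP-A, the centromeric histone, none passed 2-fold in any comparison. Over all genes 4.67% did at P1 against P0, 7.88% at P2 against P0 and 1.66% at P2 against P1, so a list of 4 says little. Hjurp, its chaperone, measured 79.1 FPKM at P0, 79.8 at P1 and 80.3 at P2. Oip5 and Mis18a, whose products take part in licensing the loading, measured 17.1, 14 and 14 FPKM, and 15, 17.4 and 18.1 FPKM. Of the transcripts that overlap H3f3a on the other strand, Gm17275 was at 0.541, 0.608 and 0.210 FPKM and H3f3aos at 2, 4 and 7 reads.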
